A study of Sus scrofa with 20 samples.

Results

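In LLC-PK1 cells, 69 of the 46295 transcripts in the count table were higher after silencing of polycystin-1 (siPC1) and lay close to the control level after silencing of polycystin-2 (siPC2). The members were chosen by their measured values in the control, siPC1 and siPC2 libraries, so those values are a description here and were not tested. Libraries in which MRTF-A was silenced as well did not enter the siPC1 and siPC2 criteria, and in them the difference between the 2 arms could be measured again. There, 68 of the 69 transcripts had a higher mean with siPC1+siMRTF-A than with siPC2+siMRTF-A (45.0% of all transcripts at the same expression floor), and the median difference over the 69 was 0.72 on the log2 scale. By edgeR's quasi-likelihood test 39 were significantly higher and 0 lower, against 3.81% and 4.27% of all transcripts tested.

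Polycystin-1 is a large membrane protein with a long extracellular part, and polycystin-2 is a cation channel of the TRP family. The 2 proteins assemble into a complex in the primary cilium of renal tubule cells, and mutations in the gene of either cause autosomal dominant polycystic kidney disease. Myocardin-related transcription factor A (MRTF-A) is a coactivator of serum response factor that binds monomeric actin and enters the nucleus when actin polymerizes, where it drives cytoskeletal and matrix genes. Transcripts that follow only 1 of siPC1 and siPC2 are thus of interest as a readout on which the arms differ, with or without siMRTF-A.

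LLC-PK1 is an epithelial line from the pig kidney with proximal tubule character, and per the study's methods its clone 4 was used. Cells were transfected with small interfering RNAs (siRNAs), starved of serum for 24 h and harvested 48 h after transfection. Controls received a non-related siRNA (siNR, 200 nM, 4 libraries). The other groups received siPC1 (150 nM, 5 libraries), siPC2 (100 nM, 3 libraries), siPC1+siMRTF-A (4 libraries) or siPC2+siMRTF-A (4 libraries), with siMRTF-A at 100 nM in the study's figure legend and at 50 nM in its methods. The group sizes are those of the sample labels, and the legend gives others for siNR, siPC1, siPC2 and siPC1+siMRTF-A. There was no group with siMRTF-A in the absence of siPC1 or siPC2, and all values come from 1 cell line. The arms differed in siRNA sequence and dose as well as in target, and these cannot be told apart here. The labels do not say that libraries of a group came from separate cultures, so the p-values measure the spread between these libraries, which may be technical.

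Total estimated counts ran from 4421001 in siPC1 replicate 1 to 71007731 in siPC2+siMRTF-A replicate 2, and the 8 siMRTF-A libraries held 22874625 or more. Within groups, siPC1 replicate 1 (Pearson r = 0.903 with the mean of the rest of its group), siPC1 replicate 4 (0.933) and siPC2 replicate 2 (0.947) stood somewhat apart, and no pair of libraries was alike within sampling noise. The transcript identifiers could not be paired with gene names from the tables used here (0 identifiers matched). No gene is therefore named, the silencing of the siRNA targets was not checked here, and the members are described by counts, ranges and 4 identifiers. Since RNA was taken from whole cultures, fewer expressing cells and less RNA per cell cannot be told apart.

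To be chosen, a transcript needed a mean CPM (estimated count scaled to the library total) of at least 1.3 over the 20 libraries, which 20292 transcripts reached. It further needed a siPC1 mean at least 1 above siNR on the scale of log2(CPM + 0.5), which left 2679. A siPC2 mean within 0.3 of siNR left 120 of these. In the last step every siPC1 library, replicate 1 apart, had to lie above every siNR and siPC2 library, which gave the 69 members. Many members were close to these limits. The smallest siPC1 rise inside was 1.003 and 14 members were within 0.05 of the limit, while 20 transcripts that met the other criteria fell short by as little. The largest distance between siPC2 and siNR inside was 0.28, and 23 transcripts lay within 0.05 beyond the limit of 0.3. This floor was the only point at which the siMRTF-A libraries entered the choice, and with a floor over the other 12 libraries the rule gave 66 transcripts, all among the 69, with the same count of 39 called. Membership moved more with the scaling: with library sizes corrected by TMM factors (trimmed mean of M-values) the rule gave 74 transcripts, and the 36 shared ones made up 52.2% of the 69 and 48.6% of the 74.

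Most members were moderately expressed. Their mean CPM over all libraries had a median of 16.01, quartiles of 4.87 and 31.3, and a range from 1.34 to 362.5. The siPC1 mean exceeded the siNR mean by a median of 1.22 (log2, range 1.003 to 3.36), and the siPC2 mean by a median of 0.13 (range -0.28 to 0.28), both as the rule required. Across all 20292 transcripts at the CPM floor, the same differences had medians of 0.13 and 0.16.

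The medians over the 69 members by library, each relative to the siNR mean, differed by group. The 5 siPC1 libraries lay between 1.12 and 1.35, and the 4 siPC1+siMRTF-A libraries were at 1.35, 1.17, 1.17 and 1.05. The siPC2 libraries lay between 0.00073 and 0.13. The siPC2+siMRTF-A libraries were at 0.57, 0.49, 0.35 and 0.44, above all siPC2 libraries and below all siPC1+siMRTF-A libraries. Among the controls, siNR replicate 1 was at 0.25 and the other siNR libraries between -0.14 and -0.04. Over all transcripts at the CPM floor it was at 0.08 and the others between -0.07 and 0.003. Replicate 1 was the highest siNR library for 50 of the 69 members, and the share over all transcripts was not computed. Without siNR replicate 1, the rule gave 77 transcripts, of which 41 were shared with the 69. Its part in the choice was otherwise not tested.

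**Figure D1:**
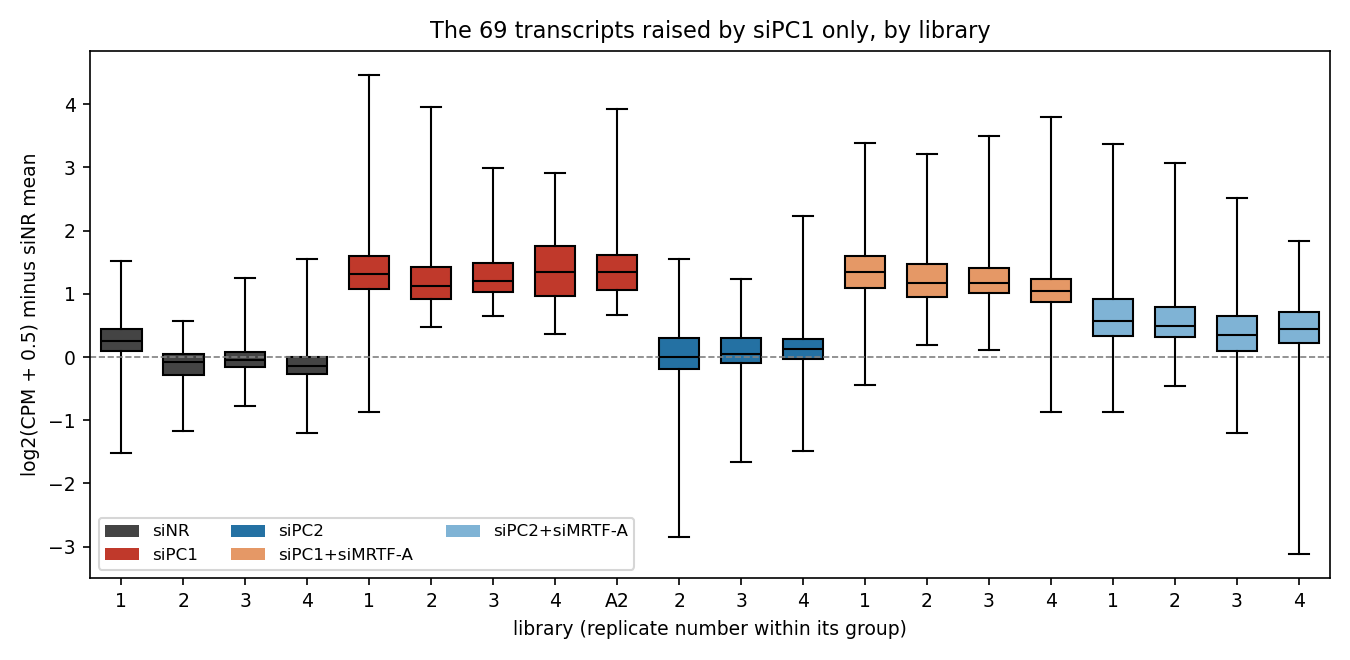
The y axis gives log2(CPM + 0.5) minus the siNR mean for the 69 members in each of the 20 libraries on the x axis, with boxes at the quartiles, a line at the median and whiskers over the whole range. The siPC1 and siPC1+siMRTF-A boxes sit near 1.2, the siPC2 boxes near 0, and the siPC2+siMRTF-A boxes between them with medians of 0.35 to 0.57.

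Whether the difference between the arms held in libraries outside the siPC1 and siPC2 criteria was asked in the siPC1+siMRTF-A and siPC2+siMRTF-A groups. The group means differed by a median of 0.72 over the members (quartiles 0.48 and 0.98, range -0.03 to 2.25). Over all transcripts at the CPM floor the median difference was -0.04. The siPC1+siMRTF-A mean was the higher for 68 of 69 members, against 45.0% of all transcripts at the floor. It was higher by 1 or more for 17 members (24.6%), against 1.90% of all. The members thus stood well to the right of the whole table on this measure, although few differed by as much as the rule had asked of siPC1 against siNR.

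**Figure D2:**
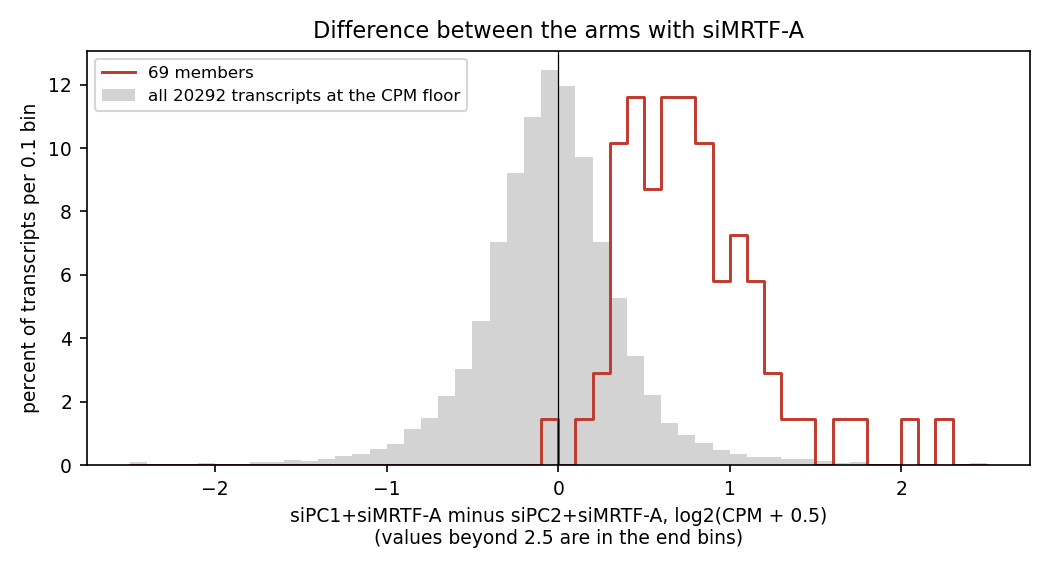
The x axis gives the siPC1+siMRTF-A minus siPC2+siMRTF-A difference of group means in log2(CPM + 0.5) and the y axis the percent of transcripts per bin, for the 69 members (red outline) and all 20292 transcripts at the CPM floor (grey). The members centre on 0.72 and all but 1 lie above 0, whereas all transcripts centre on -0.04.

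In the fit of edgeR's quasi-likelihood test to the 8 siMRTF-A libraries, 23199 transcripts were tested, the 69 members among them. Calls required an adjusted p (Benjamini-Hochberg) no greater than 0.05, a log2 fold change above 0.6 in size and a mean normalized count no lower than 50. By this rule 39 members (56.5%) were higher in siPC1+siMRTF-A, against 3.81% of all transcripts tested. No member was lower, against 4.27% of all. No member was lower at an unadjusted p under 0.05 by edgeR either, where 4409 of the 23199 tested transcripts were. By DESeq2 no member was lower at this level, and the number over all transcripts was not counted. The fold change fitted by edgeR was above 0 for all 69. With adjusted p alone, 48 members were higher, against 11.8% of all. DESeq2 called 40 members higher, against 4.28% of all.

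The 39 called members differed by 0.61 to 2.29 (log2, median 0.93), with standard errors of 0.05 to 0.22. For 17 of them the log2 fold change was 1 or more, and for 3 it was 1.5 or more. The 30 members not called had fitted values from 0.07 to 1.99 (median 0.53). Of these 30, 21 missed the adjusted p, 10 of them with a log2 fold change above 0.6, and 9 passed the adjusted p with a smaller fold change. The members not called rested on fewer reads, with a median mean count of 221 against 1072 for the called ones, and their median standard error was 0.24 against 0.11. A p that missed the threshold does not show that such a transcript was alike in the 2 groups.

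The order of the 8 libraries that entered the fit was also counted, which gives no independent support. For 50 of the 69 members (72.5%), each siPC1+siMRTF-A library lay above each siPC2+siMRTF-A library, against 13% of all transcripts at the floor. The opposite order occurred for 0 of 69 members, against 19.9% of all. Of the 50 separate members 38 were called, and 1 member was called with overlapping libraries. Taken singly, each siPC1+siMRTF-A library lay above all siPC2+siMRTF-A libraries for 56 to 62 members. Each siPC2+siMRTF-A library lay below all siPC1+siMRTF-A libraries for 54 to 60. The share over all transcripts was not computed for these single libraries, so these counts have no comparison.

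The opposite set served as a comparison. The mirror rule kept the CPM floor and asked for siPC2 at least 1 above siNR and siPC1 within 0.3. Every siPC2 library also had to lie above every siNR and siPC1 library, siPC1 replicate 1 apart. It gave 103 transcripts raised by siPC2 only. With siMRTF-A their difference had a median of -0.75. Of the 103, 52 (50.5%) were called lower in siPC1+siMRTF-A and 0 higher, against 4.27% and 3.81% of all transcripts tested. For 73 (70.9%), all siPC1+siMRTF-A libraries lay below the siPC2+siMRTF-A libraries, against 19.9% of all transcripts at the floor. Among 1327 transcripts that both siRNAs had raised, 204 (15.4%) were called higher, against 3.81% of all tested. In this set 52 (3.92%) were called lower, against 4.27%. No test was made between these sets.

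The size of the difference between the arms was smaller with siMRTF-A than without it for 65 of the 69 members. The ratio of the 2 differences had a median of 62.7% (quartiles 44.5% and 75.5%). The difference without siMRTF-A had been part of the choice, so this ratio is a description and no effect of siMRTF-A can be read from it. Across the 69 members the 2 differences had a Pearson r of 0.463 and a Spearman rho of 0.462. These points share their libraries and are not independent.

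**Figure D3:**
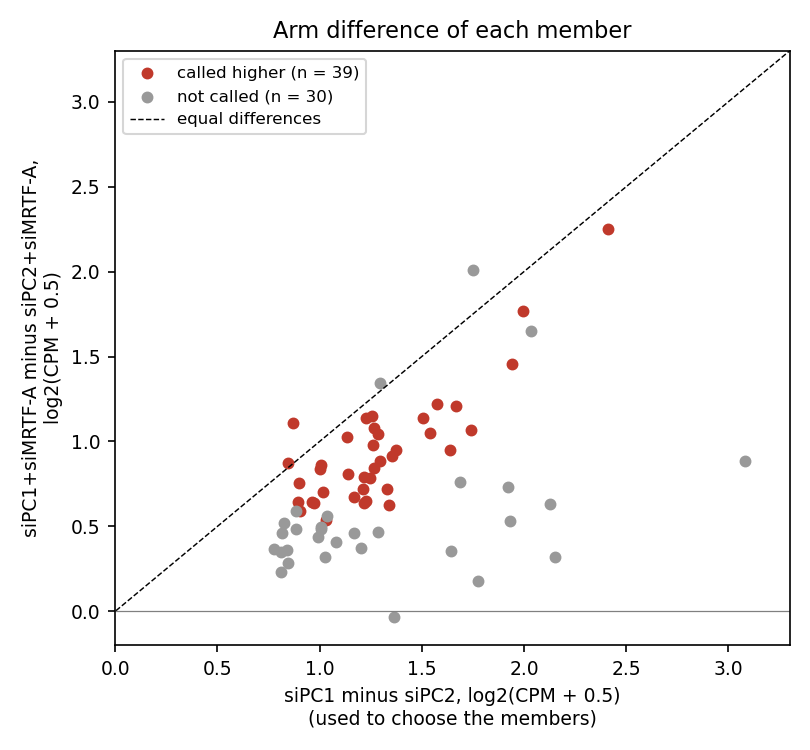
Each point is 1 of the 69 members, with the siPC1 minus siPC2 difference on the x axis and the siPC1+siMRTF-A minus siPC2+siMRTF-A difference on the y axis, both in log2(CPM + 0.5), and with the dashed line at equal differences. The 39 members called higher are red and the 30 not called grey, and 65 points lie below the line.

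Each siMRTF-A group was also set beside the group with the same polycystin siRNA alone and beside siNR. These groups entered the choice, so the counts are given as values without a test. With siPC1, the addition of siMRTF-A moved the members by a median of -0.06 (range -0.91 to 1.01). Of the 69, 26 were higher, against 10461 of all 20292 transcripts at the floor. All siPC1+siMRTF-A libraries lay above all siPC1 libraries for 3 members (7.14% of all transcripts at the floor did so) and below for 3 (7.02% of all). With siPC2, the addition moved the members by a median of 0.35 (range -0.59 to 2.19). Here 64 of the 69 were higher, against 11095 of all 20292 transcripts at the floor. All siPC2+siMRTF-A libraries lay above all siPC2 libraries for 32 members (11.8% of all) and below for 1 (10.2% of all). Over all transcripts at the floor the medians of these differences were 0.0092 and 0.027. For the members the larger median shift was the one with siPC2, whose level without siMRTF-A the rule had held near the control. For the mirror set, whose rule is given above, the median shifts were 0.17 with siPC1 and -0.28 with siPC2. What part the choice of transcripts had in these shifts was not tested.

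Relative to siNR, the median was 1.15 in siPC1+siMRTF-A and 0.47 in siPC2+siMRTF-A. All siPC1+siMRTF-A libraries lay above all siNR libraries for 62 members, where 33.9% of all transcripts did so, and all siPC2+siMRTF-A libraries for 22, where 34.6% did so. The members fell into 3 groups by these orders. The orders used the same siMRTF-A libraries as the test between the arms, so the calls per group are a description. Shares over all transcripts were not computed for these groups. In 40, siPC1+siMRTF-A alone lay clear of siNR, with medians of 1.15 for siPC1+siMRTF-A and 0.38 for siPC2+siMRTF-A, and 29 of the 40 were called between the arms. In 22, both did, with medians of 1.15 and 0.64, and 9 were called. In the other 7 neither did, and 1 was called. These 7 had a median CPM of 3.08, against 16.99 and 16.01 in the larger groups.

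The shallowest library gave a further look at the choice. With siPC1 replicate 1 kept out of both the mean and the separation, the rule gave 68 transcripts, 57 of them shared with the 69. Replicate 1 lay above every siNR and siPC2 library for 57 of these 68 (83.8%), against 29.8% of all transcripts at the floor. The same order held for 49.7% of the transcripts raised by both siRNAs and for 2.91% of the mirror set. The siNR and siPC2 libraries in this comparison are those that chose the 68 transcripts. The 83.8% is therefore a description of 1 library and no test of the choice.

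The extremes among the members show what the counts rest on. By the naming rule, these are the 2 members with the highest and the 2 with the lowest fitted difference between the siMRTF-A groups. ENSSSCT00000011308.5, the highest, was well separated. Its CPM was 145, 89.6, 101 and 95.8 with siNR, 645, 643, 705, 666 and 603 with siPC1, and 145, 109 and 116 with siPC2. It was 720, 699, 596 and 620 with siPC1+siMRTF-A and 125, 148, 123 and 157 with siPC2+siMRTF-A. The siPC1 and siPC1+siMRTF-A libraries thus formed a high level, at 653 ± 37.2 (SD, n = 5) and 659 ± 59.8 (n = 4), whereas no library of the other groups exceeded 157. Between the siMRTF-A groups the log2 fold change was 2.29 ± 0.11 (SE, adjusted p = 2.62e-05, edgeR quasi-likelihood test). An exact two-sided permutation test of 4 against 4 libraries gave p = 0.0286, the smallest it allows.

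ENSSSCT00000091476.2, the second highest, was at 0 in some libraries of every group and clearly counted in others. Its CPM with siPC1+siMRTF-A was 4.97, 3.33, 3.49 and 0, and with siPC2+siMRTF-A it was 0, 2.97, 0 and 0. With siPC1 it was 0, 4.69, 6.80, 6.38 and 9.40, with siNR 0, 0, 0.541 and 2.18, and with siPC2 0, 0 and 3.78. In the siMRTF-A libraries above 0 its estimated count was 133 to 260, and the siMRTF-A groups overlapped. Its log2 fold change of 1.99 ± 1.93 (SE) was not called (adjusted p = 0.521 by edgeR, and p = 0.143 by the exact two-sided permutation test). Without siPC2+siMRTF-A replicate 2 that group was at 0 in all libraries left, and the fitted value of 9.93 then depends on the prior count and is no bound.

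ENSSSCT00000079585.2 had the lowest difference. Its CPM with siPC1+siMRTF-A was 2.20, 4.66, 4.25 and 1.58, and with siPC2+siMRTF-A it was 1.77, 3.55, 3.38 and 3.73, so that the groups overlapped. With siPC1 it was 4.94, 4.37, 5.30, 4.61 and 3.87, with siNR 0.971, 2.41, 1.27 and 1.88, and with siPC2 0, 3.60 and 3.27. The siPC2 mean within 0.3 of siNR came from 1 library at 0 and 2 libraries above every siNR library. The log2 fold change between the siMRTF-A groups was 0.07 ± 0.41 (SE, adjusted p = 0.923 by edgeR), the exact two-sided permutation test gave p = 0.971, and the sign turned when single libraries were left out (-0.20 without siPC1+siMRTF-A replicate 2).

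ENSSSCT00000048833.3, the second lowest, was high in both siMRTF-A groups. Its CPM was 20.3, 16.2, 17.5 and 19.1 with siPC1+siMRTF-A and 18.2, 14.8, 13.3 and 15.9 with siPC2+siMRTF-A, against 10.7, 7.30, 8.90 and 7.07 with siNR. It was 18.3, 15.04, 17.001, 23.0 and 17.7 with siPC1 and 9.33, 9.93 and 10.96 with siPC2. All libraries of both siMRTF-A groups lay above all siNR and siPC2 libraries. The means exceeded siNR by 1.08 and 0.84 on the log2 scale, and the difference between the 2 groups was 0.27 ± 0.09 (SE, adjusted p = 0.0603 by edgeR). The exact two-sided permutation test gave p = 0.114. Without single libraries the adjusted p of this transcript ran from 0.0297 to 0.149, with log2 fold changes of 0.22 to 0.33.

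**Figure D4:**
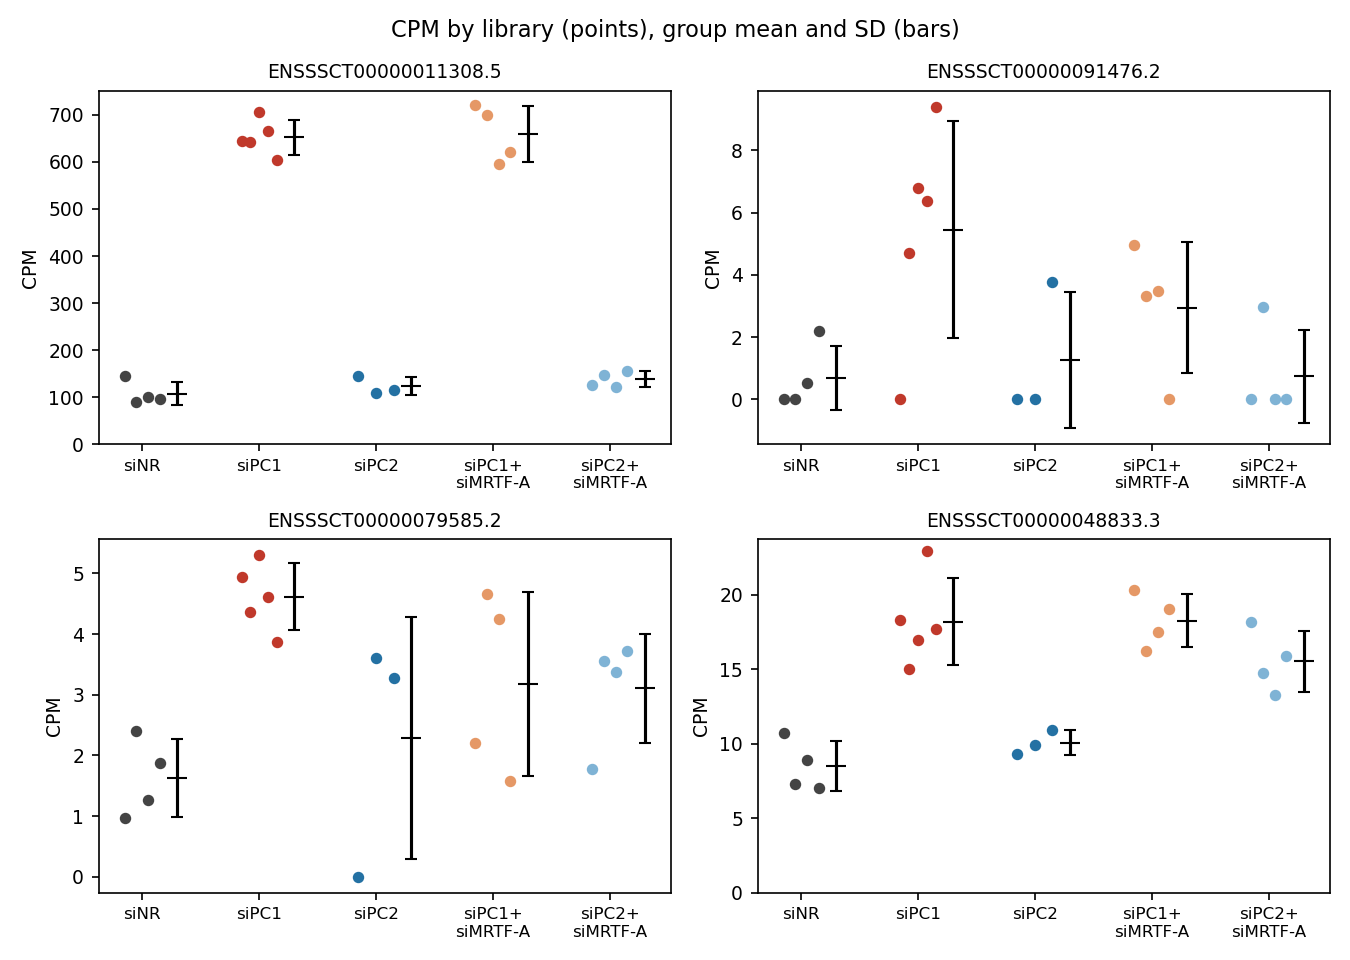
Each panel shows 1 transcript, with CPM on a linear y axis and the 5 groups on the x axis, points for libraries in the order of replicate number and bars for the group mean and SD. ENSSSCT00000011308.5 sits at 596 to 720 in all libraries with siPC1 and at 89.6 to 157 in all others, whereas the siMRTF-A groups of the other 3 transcripts overlap.

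Values at 0 next to high values within a group were not particular to ENSSSCT00000091476.2. Of the 69 members, 11 (15.9%) were at 0 in at least 1 library, and 8 (11.6%) had both a 0 and an estimated count of 100 or more within 1 group. The shares were 12.1% and 10.1% over all transcripts at the floor. Of the 8, 0 were called between the siMRTF-A groups by edgeR. Counts that are not whole show that Salmon divided reads between transcripts. For 43 members (62.3%) the estimated count was whole, within 0.001, in none of the 20 libraries, against 60.4% of all transcripts at the floor. No member had whole counts in all 20 libraries, and only 1.48% of all transcripts at the floor did. The spread between libraries was somewhat larger for the members than for all transcripts at the floor, with a median SD of 0.17 against 0.15 (log2) in siPC1+siMRTF-A and 0.21 against 0.15 in siPC2+siMRTF-A.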

How the data were processed

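Poly(A) RNA libraries were sequenced as single or paired reads, and which library had which layout is not given in the sources used here. Per the submitters' processing notes, FastQC 0.11.8, Trim Galore 0.6.3, Salmon 0.14.1 and HISAT2 were used. The authors deposited Salmon's estimated counts per Ensembl transcript of the coding sequences of Sscrofa11.1, without normalization, so reads in untranslated regions were not counted and reads shared by transcripts were divided by estimation. The members and lists were chosen with earlier results of these data known.

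CPM was computed from the library totals (4421001 to 71007731), with a pseudocount of 0.5 on the log2 scale. For the test, estimated counts were rounded, transcripts with a mean CPM of at least 0.5 over the 8 siMRTF-A libraries were kept, TMM factors were applied, and edgeR 4.0.16 in R 4.3.3 was fitted (glmQLFit, glmQLFTest) without covariates. Only these 8 libraries entered, because the other 12 had chosen the members. Standard errors were derived from the F statistic and the fold change. The thresholds (adjusted p of at most 0.05, log2 fold change above 0.6, mean normalized count of at least 50) follow the study. Single transcripts were also compared by an exact permutation test. The procedure was tested on simulated data.

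The naming rule took, where identifiers carry no gene symbols, the 2 highest and the 2 lowest fitted log2 fold changes among members whose mean normalized count reached 50. With no gene symbols, no gene list or marker list was used and no sequence is shown. Alternatives were DESeq2 1.42.0, other scalings, filters and thresholds, glmTreat, a model of all 20 libraries, a replicate block, other forms of the rule that chose the members, and each library left out in turn.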

Additional observations from a re-analysis of the deposited data

Results flagged for a closer look

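The log2(CPM + 0.5) values of the 4 named transcripts, and the medians over the 69 members by library, were examined in each group of 4 or 5 libraries for a library far from the rest of its group. Of 20 groups of values compared, 4 had such a library, all for single transcripts at low CPM. For ENSSSCT00000091476.2, siPC1 replicate 1 was at 0 CPM, below the other siPC1 libraries (4.69 to 9.40). For the same transcript, siPC1+siMRTF-A replicate 4 was at 0 CPM, below the others at 3.33 to 4.97, and siPC2+siMRTF-A replicate 2 was at 2.97 CPM with the others at 0. For ENSSSCT00000079585.2, siPC2+siMRTF-A replicate 1 was at 1.77 CPM, below the others at 3.38 to 3.73. For independent, normally distributed values chance marks about 5% of such groups, and the groups here share libraries.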

How the results depend on the processing

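The 39 members called higher became 20 with a test against the fold threshold itself (glmTreat), a stricter question, and 48 with no fold threshold. The other alternatives run gave 35 with library totals, 37 with no filter, 38 with the model of all 20 libraries, 39 with DESeq2 size factors, filterByExpr or no minimum count, 40 with DESeq2, and 35 to 39 with each library left out. In all of these 0 members were lower. A replicate block on the library number gave 40. Deviations of equally numbered siMRTF-A libraries correlated at rho = 0.562, 0.0232, 0.00829 and 0.101, so the numbers were not taken as pairs. With single libraries left out, separate members were 50 to 56, the median difference 0.64 to 0.79, the members by the rule 67 to 90, and the fold changes of the named transcripts 2.22 to 2.36 (ENSSSCT00000011308.5), 1.57 to 9.93 (ENSSSCT00000091476.2, 5.51 with the replicate block), 0.22 to 0.33 (ENSSSCT00000048833.3) and -0.20 to 0.29 (ENSSSCT00000079585.2, which turned sign also at -0.09 without siPC1+siMRTF-A replicate 3 and -0.14 without siPC2+siMRTF-A replicate 1, and the cause was not tested). For all transcripts tested, the calls were 885 higher and 990 lower, and 229 and 186 with glmTreat. Members chosen with TMM-scaled CPM numbered 74 (36 shared, 38 called higher, median 0.63). A pseudocount of 0.1 or 2 gave 79 (63 shared) or 53 (36 shared). Chosen after seeing the data, the rule without siPC1 replicates 1 and 4 and siPC2 replicate 2 gave 77 (38 shared, 46 called higher, median 0.65). Members not called had fewer counts (median of the mean counts 221 against 1072) and larger standard errors than those called, and the part of depth in this was not tested.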
